A study of Mus musculus with 15 samples.

Results

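This account covers the transcripts of the calcineurin and NFAT pathway in mouse macrophages: the factor genes *Nfatc1*, *Nfatc2*, *Nfatc3*, *Nfatc4* and *Nfat5*, the calcineurin subunit genes *Ppp3ca*, *Ppp3cb* and *Ppp3r1*, and the calcineurin regulator *Rcan1*. In GRCm38 (GENCODE) *Nfatc2* spans chr2:168476410-168601657, *Nfatc3* chr8:106058840-106130537, *Nfatc4* chr14:55823144-55833943, *Nfat5* chr8:107293470-107379517, *Ppp3ca* chr3:136670124-136937727, *Ppp3cb* chr14:20499364-20546573 and *Ppp3r1* chr11:17159263-17200375. The genes were chosen by name, and all 9 were found among the 20089 complete gene entries of the expression table. All 9 passed the filter on low values, a mean of at least 0.1 FPKM (fragment counts scaled to transcript length and to sequencing depth) over the 15 samples. Bone marrow-derived macrophages (BMDMs) of wild-type C57BL/6 mice were grown with M-CSF, the growth factor on which macrophages depend, for 3 days according to the labels. The study's methods give 4 days in M-CSF for BMDMs. Control cells received nothing further. The other groups were kept in M-CSF and stimulated with RANKL, the cytokine that turns macrophage precursors into osteoclasts, or with LPS, a bacterial cell wall component that activates macrophages through TLR4. Each stimulus lasted 4 h or 3 days (72 h), and each of the 5 groups had 3 samples. The labels do not say whether these came from separate mice, so the p-values measure the spread between samples, which may be technical.

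In resting cells the NFATc proteins are held in the cytoplasm by phosphorylation. When calcium enters the cytoplasm, calmodulin switches on calcineurin, a phosphatase built from a catalytic A subunit (*Ppp3ca*, *Ppp3cb* or *Ppp3cc*) and a regulatory B subunit (*Ppp3r1*), and the dephosphorylated NFATc proteins move to the nucleus. NFATc1 is the best known of them in bone, where it drives the gene program of the osteoclast and its own transcription. NFAT5 lacks the calcineurin docking part and is known for the response to hypertonic stress. RCAN1 binds calcineurin and restrains it, and transcription from an internal start of its gene is itself driven by NFAT. Transcript levels say nothing of phosphorylation or of where the proteins are.

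The libraries held 18306184 to 20330207 fragments on the listed genes, so the count behind a single value ran from 14 fragments for *Nfatc4* in an LPS 4 h sample to 9335 for *Nfatc1* in a RANKL 72 h sample. One library stood apart. LPS 72 h replicate 3 correlated with the other two samples of its group at 0.942 and 0.954 (Pearson r across genes, log2 scale), which reached 0.988 with each other, and its summed level of 8 macrophage markers was 17491 FPKM against 6086 and 7876. Calls of the 9 genes that rest on LPS 72 h samples are given with and without it. All 8 macrophage markers were in the table, with sums of 6046 to 17491 FPKM over the samples. The cultures also carried transcripts of other cells. The sum of 10 neutrophil and granule markers was 7913 to 24348 FPKM in control, 1852 to 7461 in RANKL 72 h and 152 to 1816 in LPS 72 h. In bulk RNA, fewer cells of a type and less RNA per cell cannot be told apart. No group is labelled as kept for a further 72 h in M-CSF alone, and the sources do not say when control cells were harvested, so time in culture and stimulus cannot be told apart at 72 h.

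**Figure D1:**
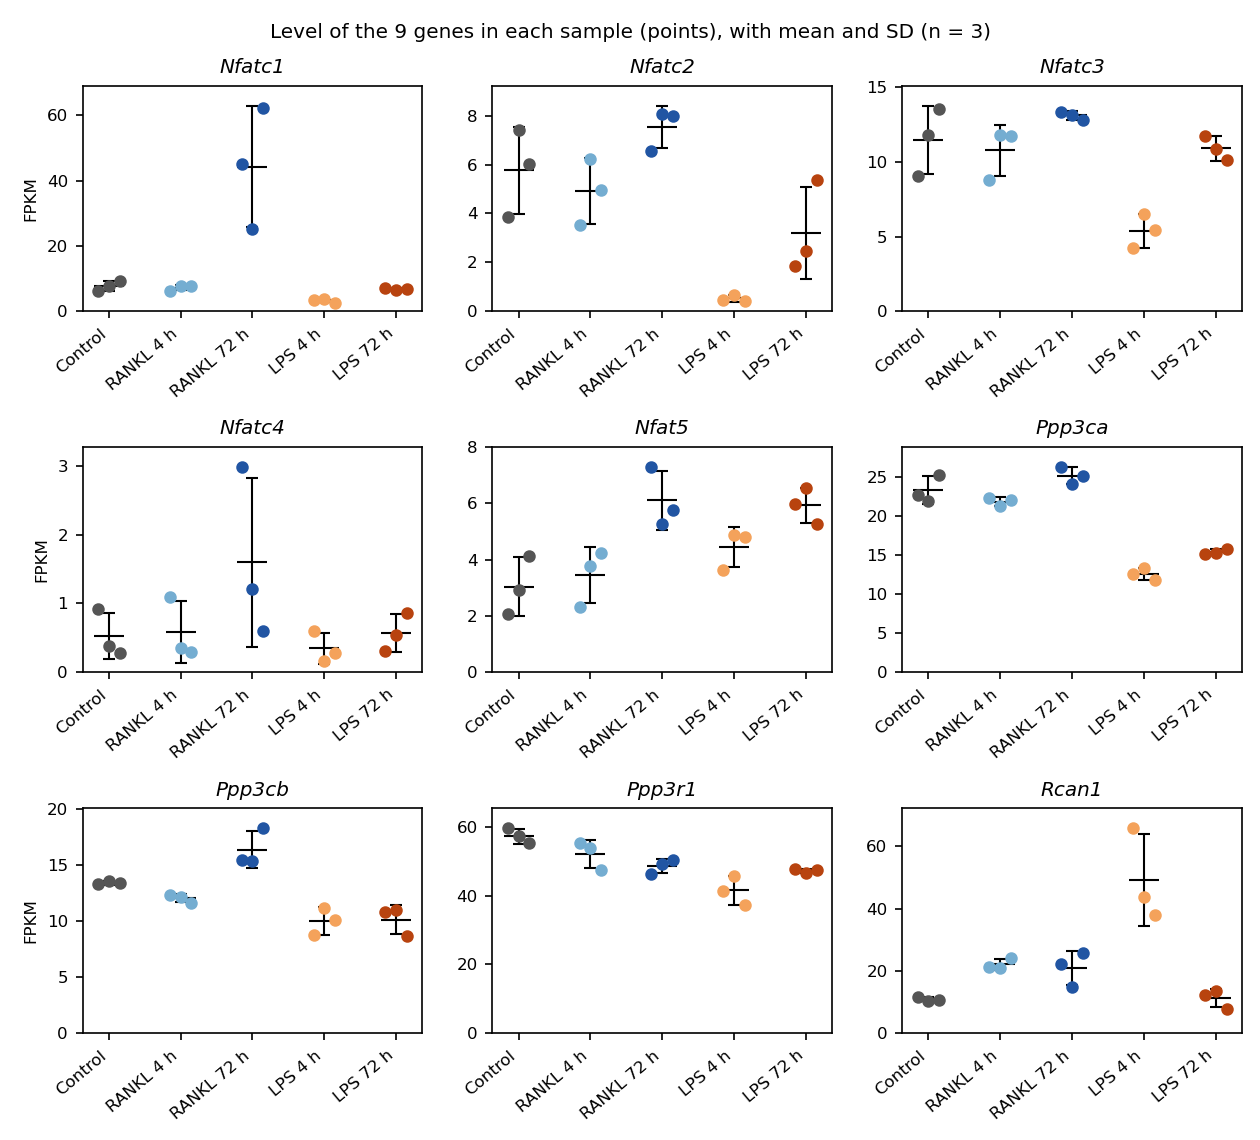
FPKM (linear axis from 0) of each of the 9 genes in every sample, by group, with points for samples and a bar with whiskers for the mean and SD (n = 3). *Nfatc1* stands highest in RANKL 72 h (25.2 to 62.2 FPKM), *Nfatc2* lowest in LPS 4 h (0.422 to 0.668 FPKM), and *Rcan1* highest in LPS 4 h (37.9 to 65.7 FPKM).

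In control macrophages the regulatory subunit gene *Ppp3r1* had the highest level of the 9, 57.3 ± 2.18 FPKM (SD, n = 3). It was followed by *Ppp3ca* at 23.4 ± 1.77 FPKM, and neither overlapped with the gene below it in that order. *Ppp3cb* at 13.4 ± 0.161 FPKM overlapped with *Nfatc3* at 11.5 ± 2.25, and *Nfatc3* with *Rcan1* at 10.9 ± 0.663 FPKM, while *Rcan1* lay apart from *Nfatc1* below it. *Nfatc1* at 7.74 ± 1.54 and *Nfatc2* at 5.77 ± 1.77 FPKM overlapped, as did *Nfatc2* and *Nfat5* at 3.04 ± 1.05 FPKM. *Nfatc4* came last, at 0.529 ± 0.338 FPKM, with no overlap with *Nfat5*. In RANKL 72 h *Nfatc1* stood second to *Ppp3r1*, overlapping with it, and in LPS 4 h *Rcan1* stood first, overlapping with *Ppp3r1*. FPKM divides by transcript length, so these levels can be set side by side between genes only as far as the length used for each gene fits. Which isoforms the fragments came from was not examined. The same limit holds for shares within a family.

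A gene was called changed when its fold change was above 1.5 or below 0.66 with an unadjusted p under 0.05, the rule of the study's methods, in limma fitted to log2(FPKM + 0.1) of 11743 genes. Benjamini-Hochberg adjusted p-values over those genes are given beside it. Fold changes on this scale understate the change of low genes. Against control, 1 of the 9 genes was called in RANKL 4 h (2.56% of all tested genes were), 4 in RANKL 72 h (29.2%), 5 in LPS 4 h (49.8%) and 2 in LPS 72 h (31.0%). Between the stimuli, 5 of 9 were called at 4 h (51.8%) and 5 of 9 at 72 h (38.9%). Between the times, 2 of 9 were called for RANKL (28.3%) and 4 of 9 for LPS (59.3%). Such shares of 9 genes lie near those of all genes in several of these comparisons, so the counts alone say little about the pathway, and the genes are described one by one.

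In LPS 4 h the median gene lay lower than in control. Whether this came from scaling or from lower RNA of most genes was not tested. The median log2 difference of all genes from control was -0.52 in LPS 4 h, against 0.00 in RANKL 4 h, 0.16 in RANKL 72 h and 0.08 in LPS 72 h. Centring every sample on its median gene turned the share of higher genes among those called from 17.6% to 55.0% in LPS 4 h and from 69.0% to 47.1% in RANKL 72 h. The same step took it from 82.0% to 45.6% between RANKL and LPS at 4 h, from 64.6% to 53.1% between them at 72 h, from 70.9% to 47.6% between the RANKL times and from 75.8% to 40.6% between the LPS times. Centred values of the 9 genes are therefore given below where they change a call, and centred counts for the gene lists.

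**Figure D2:**
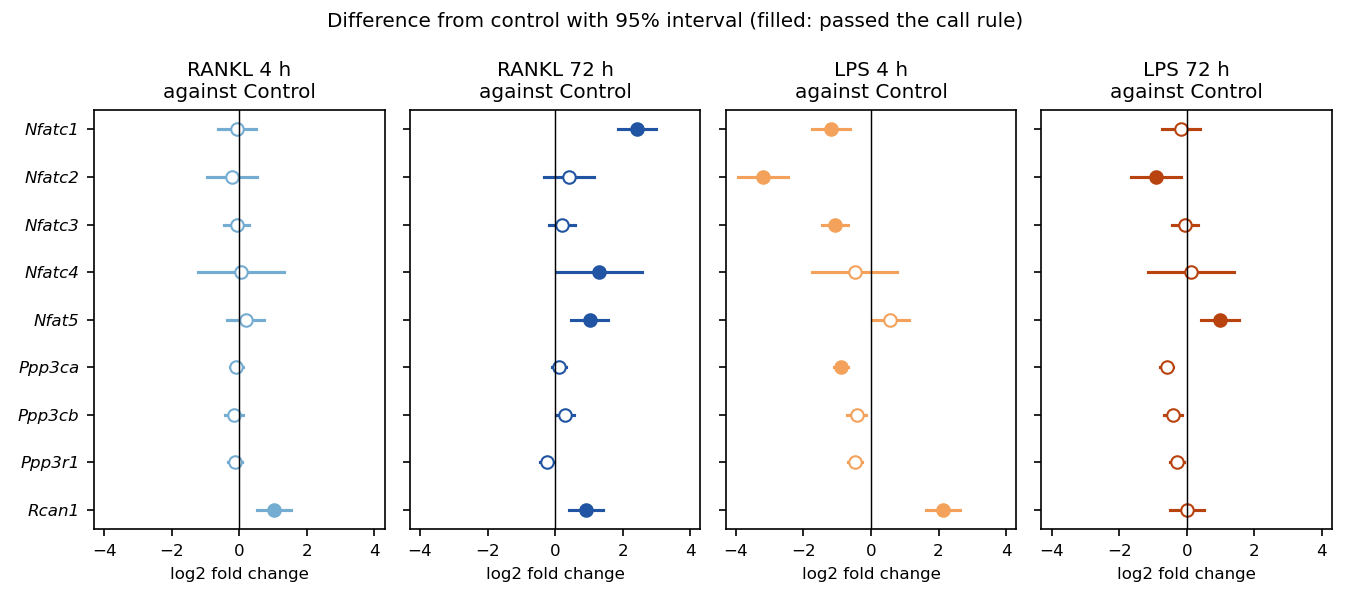
Log2 fold change of the 9 genes against control (x axis) with 95% confidence intervals from limma, in 1 panel per group, with filled points for called genes. *Nfatc1* lies at 2.42 in RANKL 72 h and at -1.19 in LPS 4 h, and *Rcan1* lies to the right in RANKL 4 h, RANKL 72 h and LPS 4 h.

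*Nfatc1*, the factor that drives osteoclast formation, rose with RANKL at the later time. Its control samples had 6.24, 7.67 and 9.31 FPKM, and its RANKL 4 h samples 6.35, 7.78 and 7.63 FPKM. In RANKL 72 h the values were 45.3, 25.2 and 62.2 FPKM. The groups at 4 h and in control overlapped, and the lowest RANKL 72 h sample lay above the highest of the other 12. The log2 fold change was -0.08 at 4 h (95% interval -0.64 to 0.48) and 2.42 at 72 h (95% interval 1.86 to 2.98, limma adjusted p = 2.85e-05), a 5.36-fold rise. The RANKL times themselves differed by 2.50 (adjusted p = 2.56e-05, limma). Leaving out each of the 15 samples in turn left the rise over control between 2.13 and 2.78.

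LPS 4 h samples had 3.49, 3.86 and 2.64 FPKM of *Nfatc1*, all below every sample of the other groups. Against control the gene fell by 1.19 (log2, limma adjusted p = 0.00148), and by 0.62 after median centring, where it was still called but with an adjusted p of 0.0651. At 72 h the LPS samples were back within the control range, at 7.03, 6.45 and 6.81 FPKM (log2 difference -0.17, 95% interval -0.74 to 0.39). RANKL 72 h exceeded LPS 72 h by 2.60 (adjusted p = 4.17e-06, limma), a 6.05-fold difference, and without LPS 72 h replicate 3 it was also 2.60.

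Most of the listed genes that NFATc1 is known to switch on in osteoclasts were high in the 3 RANKL 72 h samples, where *Nfatc1* was highest. The same list served as osteoclast markers and was chosen with earlier results of these data known. Whether NFATc1 caused the rise was not tested. *Atp6v0d2* and *Clcn7* of the list were not called in RANKL 72 h. Of a list of 10, 8 rose in RANKL 72 h, with a list median of 5.07 against 0.16 over all genes, and none was called in RANKL 4 h, where the median was 0.03, or at an unadjusted p under 0.05 whatever the fold, or by voom (0 in each case). *Ctsk*, the collagen-degrading protease cathepsin K, had 32.9, 15.5 and 23.5 FPKM in control and 987, 532 and 1661 in RANKL 72 h. *Dcstamp*, which is needed for cell fusion, went from 0.499, 0.251 and 0.0243 FPKM to 32.1, 22.4 and 70.9. The sample with the lowest *Nfatc1* in RANKL 72 h, replicate 2, also had the lowest *Ctsk* and *Dcstamp*, and replicate 3 the highest of all 3 genes. In control the orders did not match: *Nfatc1* was highest in replicate 3, and *Ctsk* and *Dcstamp* were highest in replicate 1. The fusion gene *Ocstamp* and the receptor gene *Oscar* had 0 to 0.432 FPKM in control and 18.2 to 69.5 FPKM in RANKL 72 h. *Calcr*, the calcitonin receptor gene, was listed at 0 in all control and RANKL 4 h samples and had 1.79 to 6.36 FPKM in RANKL 72 h. Against a floor of 3 fragments over the control group it was at least 325-fold higher, and with *Calcr* at that bound the list median was 5.18. In LPS 72 h 1 member of the list rose and 2 fell: the log2 fold change was 1.68 for *Ctsk* (adjusted p = 0.0234), -2.09 for *Itgb3*, an integrin of the resorbing cell (adjusted p = 0.00109), and -1.52 for *Atp6v0d2*, a proton pump subunit (adjusted p = 0.0189, all limma). The list median there was 0.23, against 0.08 over all genes. Of all tested genes, 29.2% were called in RANKL 72 h, 2.56% in RANKL 4 h and 31.0% in LPS 72 h. Without LPS 72 h replicate 3, whose *Atp6v0d2* level was 10.6 FPKM against 42.6 and 40.1, that gene's difference was -0.87. Without RANKL 72 h replicate 2, which enters only through the shared spread, 5 genes of the list were called in place of 3.

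**Figure D3:**
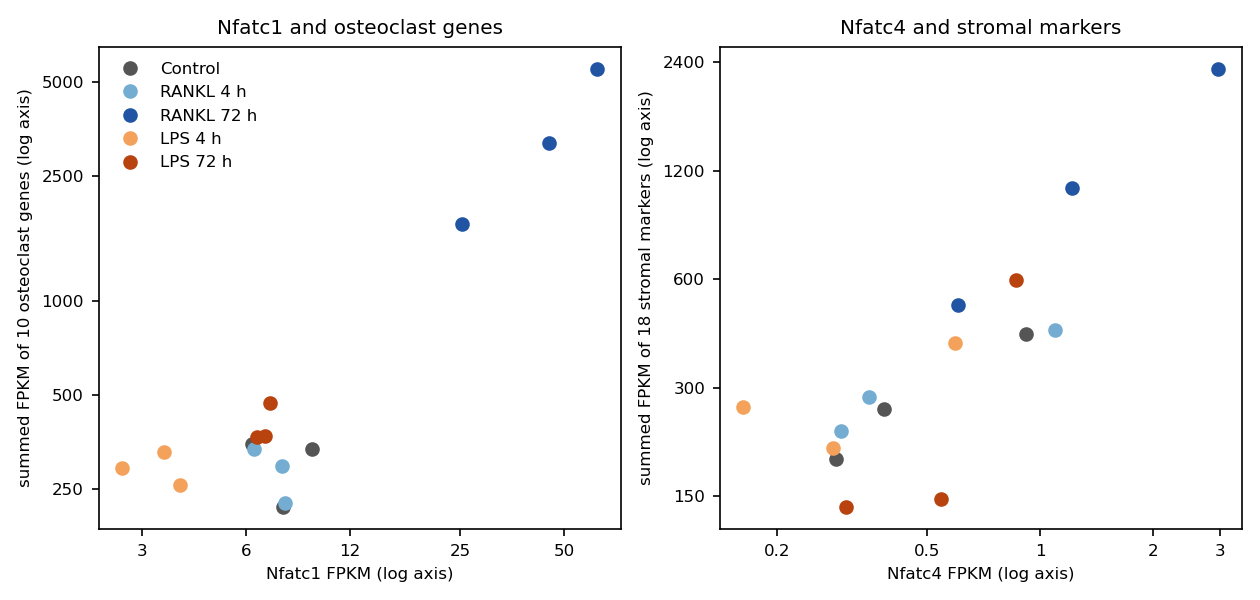
Left, FPKM of *Nfatc1* against the summed FPKM of the 10 osteoclast genes in each of the 15 samples, and right, FPKM of *Nfatc4* against the summed FPKM of 18 stromal markers, on log axes, coloured by group. The RANKL 72 h samples stand apart on the left (sums of 1760 to 5504), and on the right the sample with the highest *Nfatc4* (2.98 FPKM) has the highest stromal sum (2297).

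*Nfatc2*, the NFAT factor best known from T cells, was the gene of the 9 that lay lowest against control in LPS 4 h. Control samples had 3.88, 7.39 and 6.04 FPKM and LPS 4 h samples 0.477, 0.668 and 0.422, based on 75 to 120 fragments. The groups were far apart: the log2 difference was -3.21 (limma, adjusted p = 4.84e-06), and -2.64 after centring (adjusted p = 5.99e-05, limma). At 72 h the LPS samples stood at 1.83, 2.46 and 5.36 FPKM. The last of these is replicate 3, the library that stood apart, and it lay inside the control range while the others lay below it. The difference from control of -0.92 met the call rule (unadjusted p = 0.0187) with an adjusted p of 0.0518 in limma, and was -1.35 without replicate 3. The call was lost without control replicate 2 (-0.72), control replicate 3 (-0.86), LPS 72 h replicate 1 (-0.60) or LPS 72 h replicate 2 (-0.80). *Nfatc2* rose again from LPS 4 h to LPS 72 h by 2.29 (adjusted p = 5.57e-05, limma).

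RANKL left *Nfatc2* near the control level, with 3.54, 6.23 and 4.94 FPKM at 4 h and 6.56, 8.06 and 7.98 FPKM at 72 h (log2 differences -0.22 and 0.42, intervals -0.96 to 0.52 and -0.32 to 1.16). RANKL and LPS therefore differed by 2.99 at 4 h and by 1.34 at 72 h (adjusted p = 8.43e-06 and 0.00618, limma), the latter by 1.77 without LPS 72 h replicate 3. The summed level of 8 T cell markers was 10.8 to 20.8 FPKM in control, 7.76 to 16.03 in LPS 4 h, 16.6 to 36.4 in RANKL 72 h and 4.81 to 10.9 in LPS 72 h, with no marker of the list at 0 in every sample. Its part in the *Nfatc2* values was not tested.

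*Nfatc3* had the highest level of the NFATc genes in control. It had 9.05, 11.8 and 13.5 FPKM in control and 4.24, 6.51 and 5.42 in LPS 4 h, where all 3 samples lay below all others. The log2 fold change of -1.08 (adjusted p = 0.000178, limma) was called, but its size after centring, -0.51, missed the fold threshold (adjusted p = 0.014). In the other groups it ranged from 8.79 to 13.4 FPKM, and no difference from control was called there.

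*Nfatc4* was the scarcest factor, resting on 14 to 234 fragments per sample. In control it had 0.915, 0.385 and 0.286 FPKM and in RANKL 72 h 2.98, 1.21 and 0.604 FPKM. The groups overlapped. The log2 fold change of 1.30 met the call rule (unadjusted p = 0.0451) with an adjusted p of 0.108 in limma. It was not called after centring (1.08) or without RANKL 72 h replicate 1 (0.74), RANKL 72 h replicate 2 (1.36), control replicate 2 (1.18) or control replicate 3 (1.01). Leaving out RANKL 4 h replicate 2, LPS 4 h replicate 3 or LPS 72 h replicate 2, which enter only through the shared spread, also ended the call at 1.30. In both groups the order of the samples was that of the 18 stromal markers, whose sum was 422, 262 and 190 FPKM in control and 2297, 1072 and 509 in RANKL 72 h. The orders also matched in RANKL 4 h and LPS 72 h, but not in LPS 4 h. There *Nfatc4* had 0.594, 0.162 and 0.281 FPKM and the stromal sum was 399, 265 and 204 FPKM. The part of stromal cells in the *Nfatc4* values was not tested. The 5 genes most like it over the 15 samples (Pearson r of log2 values, mean of at least 1 FPKM) were *Tpm2* (0.956), *Serpinf1* (0.941), *Myl9* (0.935), *Loxl2* (0.933) and *Kdelr3* (0.932). Of these, *Serpinf1* is on the stromal marker list.

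Shares within the NFATc family do not depend on how samples are scaled. *Nfatc1* made up 31.1%, 28.1% and 31.9% of the summed NFATc FPKM in control and 66.4%, 52.9% and 74.4% in RANKL 72 h, with no overlap. Its share in the remaining groups was 29.4% to 39.6%. *Nfatc3* was the largest part in control, at 44.9 ± 1.52%, and came second in RANKL 72 h, at 20.8 ± 6.23% (SD, n = 3). *Nfatc2* went from 22.4 ± 4.16% in control to 5.40 ± 0.572% in LPS 4 h, where its 3 samples lay between 4.82% and 5.96%. In LPS 72 h its share was 8.77%, 12.1% and 23.2%, the last in replicate 3. The summed NFATc level was 20.1, 27.3 and 29.1 FPKM in control, 68.1, 47.6 and 83.6 in RANKL 72 h and 8.80, 11.2 and 8.76 in LPS 4 h.

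**Figure D4:**
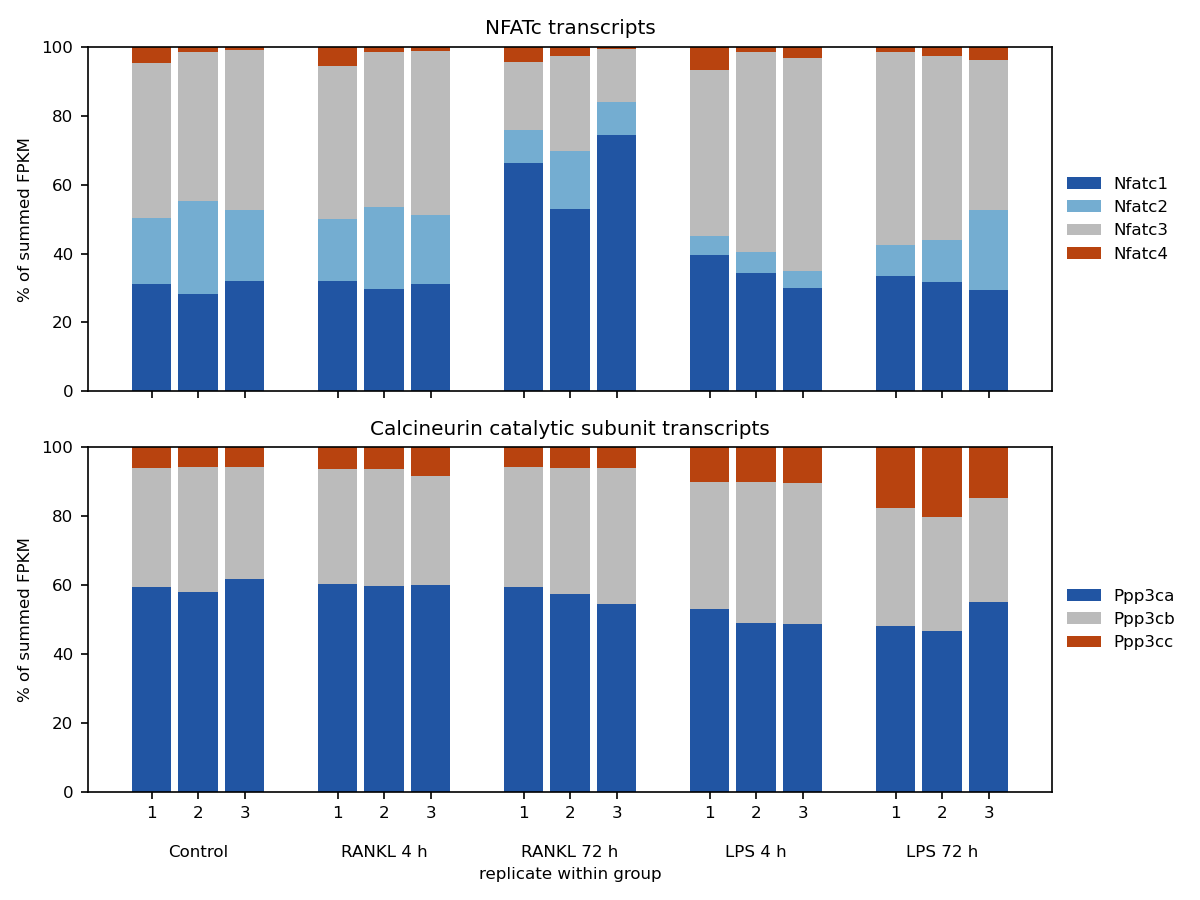
Share (%) of each gene in the summed FPKM of the 4 NFATc genes (top) and of the 3 calcineurin A genes (bottom), in 1 bar per sample, grouped by condition. The *Nfatc1* part is 52.9% to 74.4% in RANKL 72 h and 28.1% to 31.9% in control, and the *Ppp3cc* part is 14.8% to 20.1% in LPS 72 h and 5.82% to 6.02% in control.

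*Nfat5*, the factor of the hypertonic stress response, was high in both groups at 72 h. Control samples had 2.05, 2.93 and 4.15 FPKM, RANKL 72 h samples 7.28, 5.28 and 5.77, and LPS 72 h samples 5.99, 6.53 and 5.28. Every sample at 72 h lay above every sample at 4 h and in control. The rises over control were 1.02 for RANKL and 0.99 for LPS on the log2 scale (adjusted p = 0.00931 and 0.00935, limma), and the difference between the stimuli at 72 h was 0.03 (95% interval -0.52 to 0.59). Without LPS 72 h replicate 3 the LPS rise was 1.07. At 4 h the values were 2.33, 3.78 and 4.25 FPKM with RANKL and 3.63, 4.89 and 4.82 FPKM with LPS. The LPS 4 h difference of 0.57 just missed the fold threshold (fold 1.49, unadjusted p = 0.0438, adjusted p = 0.0697, limma). It passed after centring, at 1.14 (adjusted p = 0.00117), and without control replicate 3 (0.82) or LPS 4 h replicate 1 (0.71). RANKL 72 h exceeded RANKL 4 h by 0.83 (adjusted p = 0.027, limma), a call that was lost without RANKL 4 h replicate 1 (0.58).

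Of 6 genes known as NFAT5 targets in osmotic stress, 3 rose in RANKL 72 h (list median 0.63, all genes 0.16) and 3 in LPS 72 h (list median 0.78, all genes 0.08). None was called in RANKL 4 h (median -0.10; 0 at an unadjusted p under 0.05 in limma and 0 by voom), and 2 rose and 2 fell in LPS 4 h (median 0.30, all genes -0.52). Of all tested genes, 29.2% were called in RANKL 72 h, 31.0% in LPS 72 h, 2.56% in RANKL 4 h and 49.8% in LPS 4 h. Counts from a list of 6 genes therefore say little by themselves. *Slc5a3*, the inositol transporter, rose by 1.71 in RANKL 72 h and by 1.04 in LPS 72 h and fell by 1.07 in LPS 4 h (adjusted p = 0.000486, 0.00917 and 0.00374, limma). Its control samples had only 0.273, 0.567 and 0.444 FPKM. With 1 in place of 0.1 added before the log, its differences were 0.87, 0.46 and -0.31 in that order. Both LPS calls were then lost. *Slc6a12*, the betaine transporter, had 1.12, 0.469 and 1.05 FPKM in control and 5.26, 6.23 and 2.36 in LPS 72 h (adjusted p = 0.00135, limma). *Hspa1b*, an inducible heat shock protein gene whose reads can be shared with its near-identical copy *Hspa1a*, rose in 3 groups, RANKL 72 h (0.89), LPS 4 h (1.19) and LPS 72 h (2.05), with adjusted p-values of 0.0391, 0.00426 and 0.000215 in limma. *Hspa4l*, of the same chaperone family, rose by 0.80 in RANKL 72 h and by 0.68 in LPS 4 h, and the aldose reductase gene *Akr1b3* fell by 0.62 in LPS 4 h (adjusted p = 0.00748, 0.00819 and 0.00131, limma). After centring 1 of the 6 was called in RANKL 72 h, and 3 were called higher and none lower in LPS 4 h. With 1 added in place of 0.1, *Hspa1b* was not called in RANKL 72 h (0.49), nor *Hspa4l* in LPS 4 h (0.55). Single libraries decided some of the calls as well. *Hspa1b* was not called in RANKL 72 h without replicate 1 of that group (0.72), nor *Hspa4l* in LPS 4 h without its replicate 3 (0.51), nor *Akr1b3* there without control replicate 2 (-0.56) or LPS 4 h replicate 1 (-0.52).

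The calcineurin subunit genes changed less. *Ppp3ca*, the main catalytic subunit gene by level, had 22.8, 21.97 and 25.4 FPKM in control, 12.6, 13.3 and 11.9 in LPS 4 h and 15.2, 15.3 and 15.8 in LPS 72 h. Both LPS groups lay below all samples of the other 3 groups, which ranged from 21.3 to 26.3 FPKM. The fall of 0.88 in LPS 4 h (adjusted p = 3.49e-06, limma) was -0.32 after centring and then no longer called. In LPS 72 h the log2 difference of -0.59 (adjusted p = 0.000288, limma), a fold of 0.662, missed the fold threshold by little. It was called after centring (-0.68) and without LPS 72 h replicate 3 (-0.61), control replicate 1 (-0.61) or control replicate 2 (-0.64). RANKL exceeded LPS by 0.79 at 4 h (adjusted p = 8.63e-06, limma), or 0.23 after centring, and by 0.71 at 72 h (adjusted p = 3.70e-05, limma), or 0.57 after centring, and neither centred value was called. Without LPS 72 h replicate 3 the latter difference was 0.72.

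*Ppp3cb*, the second catalytic subunit gene, had 13.3, 13.6 and 13.4 FPKM in control and was highest in RANKL 72 h, at 15.5, 15.4 and 18.3 FPKM, above every sample of the other groups. That difference of 0.28 did not reach the fold threshold (unadjusted p = 0.0417, adjusted p = 0.102, limma). LPS samples had 8.80 to 11.2 FPKM at 4 h and 8.66 to 10.97 FPKM at 72 h. RANKL 72 h exceeded LPS 72 h by 0.69 (adjusted p = 0.000542, limma), but by 0.55 after centring and 0.58 without LPS 72 h replicate 3, and neither of these was called. The regulatory subunit gene *Ppp3r1* stayed between 37.4 and 59.5 FPKM in all 15 samples. No comparison called it, and its largest log2 difference from control was -0.47, in LPS 4 h (95% interval -0.68 to -0.26), or 0.10 after centring. The other 72 h differences grew with centring, to -0.46 in RANKL 72 h and -0.36 in LPS 72 h (adjusted p = 0.0095 and 0.0258, limma). Neither was called.

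Another catalytic subunit gene, *Ppp3cc*, which is not among the 9, made up a larger part of its family in LPS samples. It had 2.31, 2.21 and 2.39 FPKM in control and 5.59, 6.62 and 4.24 in LPS 72 h, a rise of 1.19 (adjusted p = 0.000199, limma). As a share of the 3 catalytic subunit transcripts it was 5.89 ± 0.107% in control, 10.2 ± 0.124% in LPS 4 h and 17.5 ± 2.68% in LPS 72 h (SD, n = 3). The 3 groups did not overlap. In LPS 4 h the level of *Ppp3cc* itself differed by 0.14 from control (adjusted p = 0.499, limma), or by 0.71 after centring, which was called, while *Ppp3ca* was lower. With RANKL the share was 6.19% to 8.24% at 4 h and 5.70% to 6.14% at 72 h.

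*Rcan1*, which encodes the calcineurin regulator, was the only one of the 9 genes called in RANKL 4 h. Mouse *Rcan1* lies on the minus strand of chromosome 16 (GRCm38, 92391953 to 92470867, GENCODE) and has a pair of starts in RefSeq, 66091 bases apart. The 250 bases before each start are shown because the internal start is the one known to be driven by NFAT (RefSeq, GRCm38.p6, gene strand). Capitals mark matches to GGAAA, the core of NFAT sites, to the AP-1 motif TGANTCA, and to TGACGTCA, the cyclic AMP response element, searched on both strands so that TTTCC also counts. The upstream window is chr16:92466170-92466419 and the internal one chr16:92400079-92400328.
*Rcan1* upstream start: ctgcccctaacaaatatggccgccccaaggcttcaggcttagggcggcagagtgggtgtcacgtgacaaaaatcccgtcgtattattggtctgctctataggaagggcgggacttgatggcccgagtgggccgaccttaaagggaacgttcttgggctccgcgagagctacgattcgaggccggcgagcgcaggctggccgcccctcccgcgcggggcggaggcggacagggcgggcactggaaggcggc
*Rcan1* internal start: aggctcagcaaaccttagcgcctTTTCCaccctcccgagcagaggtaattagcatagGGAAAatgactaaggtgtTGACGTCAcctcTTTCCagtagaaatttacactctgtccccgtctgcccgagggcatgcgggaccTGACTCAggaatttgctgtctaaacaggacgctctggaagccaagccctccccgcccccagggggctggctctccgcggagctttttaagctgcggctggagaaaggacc
The upstream window held no match. The internal window held 3 matches to GGAAA, at 227 to 223, 193 to 189 and 163 to 159 bases before the start, 1 to TGACGTCA at 175 to 168 bases and 1 to TGANTCA at 110 to 104 bases, with no overlap between them. Of 32851 promoter windows of that length in the table, 55.6% held at least 1 GGAAA match, 6.39% at least 3, 6.75% the AP-1 motif and 1.55% the cyclic AMP response element. A match describes letters and not a bound site. Entries were found for 7 of the 9 genes, 10 windows in all. GGAAA matched 3 times upstream of *Nfatc4*, of *Ppp3cb* and of 1 start of *Nfatc2*, 2 times upstream of *Nfat5* 1 time or not at all in the other windows, and TGANTCA and TGACGTCA matched in none of these.

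The table gives 1 value per sample for *Rcan1* and names 1 transcript beside it. How fragments from each start were counted is not given in the sources used here, so the values below cannot be assigned to either window. Control samples had 11.6, 10.4 and 10.6 FPKM and RANKL 4 h samples 21.3, 21.0 and 24.2 FPKM. The groups were apart, and the log2 fold change was 1.02 (standard error 0.24, unadjusted p = 0.000747), a 2.03-fold rise. Its adjusted p was 0.179 in limma, so it does not pass a threshold of 0.05 over all genes, and 14 genes in all did so with the same fold rule in that comparison. Leaving out any 1 of the 15 samples kept the difference between 0.95 and 1.07. In RANKL 72 h the values were 22.3, 14.98 and 25.6 FPKM, a rise of 0.91 (adjusted p = 0.0108, limma), and the RANKL times differed by -0.11 (95% interval -0.62 to 0.40).

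LPS raised *Rcan1* further at 4 h, to 65.7, 43.9 and 37.9 FPKM, above every sample of the other groups. On the log2 scale the rise was 2.13 (limma, adjusted p = 6.48e-06), or 2.69 after centring, which is 4.37-fold as deposited. LPS 4 h exceeded RANKL 4 h, with a log2 difference of RANKL against LPS of -1.11 (adjusted p = 0.00116, limma), or -1.68 after centring. At 72 h the LPS samples had 12.3, 13.4 and 7.91 FPKM, overlapping with control (log2 difference 0.01, 95% interval -0.50 to 0.52, or 0.24 without replicate 3). *Rcan1* fell from LPS 4 h to LPS 72 h by 2.12 (adjusted p = 4.17e-06, limma), and RANKL 72 h exceeded LPS 72 h by 0.90 (adjusted p = 0.00701, limma), or 0.67 without LPS 72 h replicate 3. In LPS 4 h, then, *Nfatc1*, *Nfatc2* and *Nfatc3* were called lower as deposited and *Rcan1* higher, while in RANKL 72 h *Nfatc1* and *Rcan1* were both called higher.

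**Figure D5:**
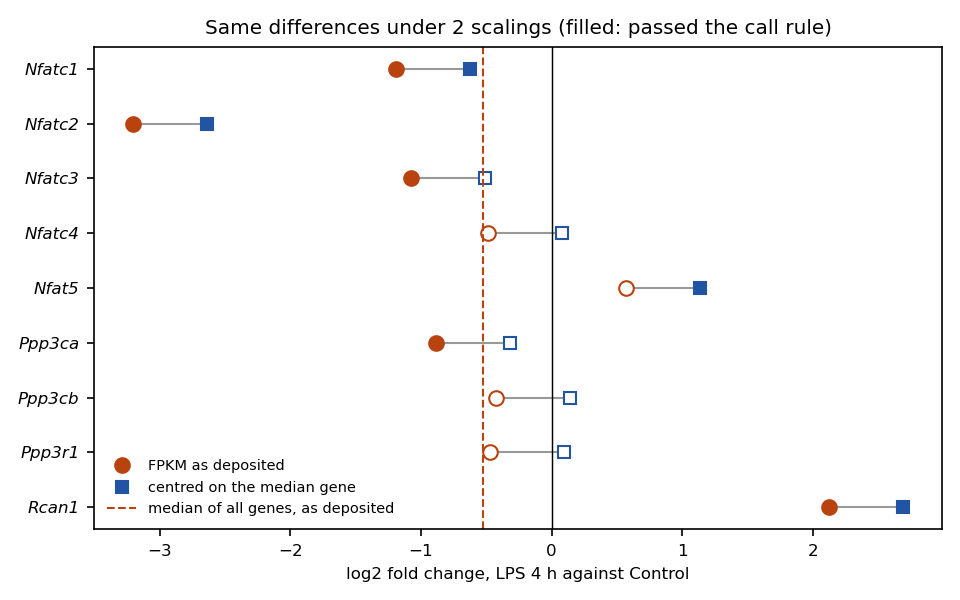
Log2 fold change of the 9 genes in LPS 4 h against control (x axis), from FPKM as deposited (circles) and after centring each sample on its median gene (squares), filled where called. The dashed line is the median of all genes as deposited, -0.52. *Nfatc1*, *Nfatc2* and *Rcan1* are called both ways, *Nfatc3* and *Ppp3ca* only as deposited, and *Nfat5* only after centring.

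The stimuli were also compared with each other. At 4 h, *Nfatc1*, *Nfatc2*, *Nfatc3* and *Ppp3ca* were higher with RANKL than with LPS and *Rcan1* lower. After centring, *Nfatc2* stayed higher and *Rcan1* lower, *Nfat5* was called lower with RANKL (-0.95, adjusted p = 0.00391), and *Nfatc1* (0.54), *Nfatc3* (0.43) and *Ppp3ca* were not called. At 72 h, *Nfatc1*, *Nfatc2*, *Rcan1*, *Ppp3ca* and *Ppp3cb* were higher with RANKL. The first 3 of these stayed called after centring. *Nfatc4* differed by 1.17 at 72 h (unadjusted p = 0.0677), and passed the call rule without RANKL 72 h replicate 3 (1.67) or LPS 72 h replicate 3 (1.47).

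Between the RANKL times *Nfatc1* and *Nfat5* rose. Same-numbered samples of these groups deviated together, and with the replicate number as a block 4 genes were called, with *Nfatc2* (0.64) and *Nfatc4* (1.25) added at adjusted p-values of 0.0951 and 0.0679 in limma. Without the block *Nfatc2* was called when LPS 72 h replicate 3 was left out, and *Nfatc4* without RANKL 4 h replicate 1 (1.75), RANKL 72 h replicate 3 (1.75) or control replicate 1. From LPS 4 h to LPS 72 h, *Nfatc1* (1.02), *Nfatc2* (2.29) and *Nfatc3* (1.02) rose and *Rcan1* fell. Without LPS 72 h replicate 3 these differences were 1.01, 1.86 and 1.07, and -1.89 for *Rcan1*. Centring left *Nfatc2* (1.64) and *Rcan1* (-2.77) as calls and took away *Nfatc1* (0.37) and *Nfatc3* (0.37). It also turned *Ppp3cb* from 0.02 to -0.63 (adjusted p = 0.000315), which was then called.

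Upstream of calcineurin, 13 genes of calcium release and entry were examined. The shares called among all tested genes were 2.56% in RANKL 4 h, 29.2% in RANKL 72 h, 49.8% in LPS 4 h and 31.0% in LPS 72 h. In RANKL 4 h only *Itpr1*, an inositol trisphosphate receptor gene, was called, and it was lower (-0.75, adjusted p = 0.157; list median -0.04). Without control replicate 3 *Orai2* was called as well (0.61). In RANKL 72 h 4 rose and 1, *Itpr1*, fell, with a list median of -0.02 against 0.16 over all genes. Those that rose were *Itpr3*, another of these receptors (1.22), *Orai2*, a calcium channel of the plasma membrane (1.0997), *Plcg1*, the phospholipase that makes inositol trisphosphate (0.94), and *Stim2*, a calcium sensor of the endoplasmic reticulum (0.63). Their adjusted p-values were 0.0219, 0.00022, 0.00818 and 0.00396 in limma. *Stim2* was not called after centring (0.41), without control replicate 1 (0.58) or without RANKL 72 h replicate 2 (0.55). The fall of *Itpr1* was lost without control replicate 2 (-0.57) or RANKL 72 h replicate 3 (-0.55). After centring 3 of the list were higher and 2 lower. In LPS 4 h 2 rose and 8 fell (list median -0.83, all genes -0.52), and after centring 2 rose and 4 fell. *Orai2* had 7.44, 6.10 and 8.56 FPKM in control and 23.2, 25.4 and 23.99 in LPS 4 h, a rise of 1.71 (limma, adjusted p = 1.03e-06). Its relative *Orai3* went from 17.2, 17.7 and 16.5 FPKM to 7.29, 6.74 and 5.65 (-1.38, adjusted p = 7.41e-05, limma). In the same group *Itpr3* fell by 1.34 and *Plcg1* by 1.30 (adjusted p = 0.00601 and 0.000316, limma). In LPS 72 h *Orai2* rose by 0.87 and *Calm2*, which encodes calmodulin, fell by 0.66 (adjusted p = 0.000802 and 0.000953, limma; list median 0.18, all genes 0.08). The list had 1 gene higher and 2 lower there, or 1 and 3 after centring.

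Of 9 other calcineurin subunits and binders 7 could be tested, and *Ppp3r2* was listed at 0 in every sample. None was called in RANKL 4 h (median 0.06; 0 at an unadjusted p under 0.05 in limma and 0 by voom), 3 rose in RANKL 72 h (median 0.27), 1 fell in LPS 4 h (median -0.33) and 2 rose in LPS 72 h (median 0.06). Over all tested genes the medians in that order were 0.00, 0.16, -0.52 and 0.08, with 2.56%, 29.2%, 49.8% and 31.0% called. The list median in LPS 4 h lay above that of all genes and was 0.24 after centring. *Rcan3*, a relative of *Rcan1*, had 4.97, 6.60 and 6.84 FPKM in control, 11.9, 11.4 and 12.4 in RANKL 72 h and 1.29, 1.87 and 1.64 in LPS 4 h, so that it was lower where *Rcan1* was highest (-1.88, adjusted p = 7.92e-07, limma). It rose in RANKL 72 h by 0.96 and in LPS 72 h by 0.67 (adjusted p = 0.000869 and 0.00635, limma), the latter not called without control replicate 1 (0.53), which left 1 gene of the list called in LPS 72 h. After centring 2 of the list were higher in RANKL 72 h, 1 was higher and 1 lower in LPS 4 h, and 2 were higher and 1 lower in LPS 72 h. *Rcan2* was nearly undetected in control (0.011 to 0.0471 FPKM) and had 1.19, 0.471 and 0.502 FPKM in RANKL 72 h, with the highest value in replicate 1, the sample with the highest stromal marker sum. *Ppia*, which encodes cyclophilin A, the target of the calcineurin inhibitor cyclosporin, rose by 0.65 in RANKL 72 h (adjusted p = 0.00353, limma), a value its many processed copies make uncertain, and was not called after centring (0.44).

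Among 9 kinases and scaffolds that act on NFAT, 8 could be tested. None was called in RANKL 4 h (median 0.01) or in LPS 72 h (median 0.21), 1 rose in RANKL 72 h (median 0.04), and 1 rose and 2 fell in LPS 4 h (median -0.40). The medians of all genes in that order were 0.00, 0.08, 0.16 and -0.52, with 2.56%, 31.0%, 29.2% and 49.8% called. The list median in LPS 4 h was 0.17 after centring. At an unadjusted p under 0.05 whatever the fold, limma found 0 of the 8 in RANKL 4 h and 2 in LPS 72 h, and voom called 0 in both. After centring *Homer3*, a scaffold gene, was also called, lower, in RANKL 72 h (-0.80), and *Dyrk3* was called lower in LPS 72 h (-0.65), while 2 genes were higher and 1 lower in LPS 4 h. *Homer3* was likewise called in RANKL 72 h without control replicate 1 (-0.63), control replicate 3 (-0.61) or RANKL 72 h replicate 1 (-0.67), and *Dyrk3* in LPS 72 h without replicate 1 of that group (-0.71). *Dyrk2*, of a kinase family that phosphorylates NFAT for export from the nucleus, had 6.48, 8.27 and 7.10 FPKM in control, 16.1, 11.01 and 16.4 in RANKL 72 h and 24.8, 33.3 and 22.3 in LPS 4 h, rises of 0.97 and 1.85 (limma, adjusted p = 0.00147 and 1.86e-06). Its relative *Dyrk3* fell by 1.74 in LPS 4 h (adjusted p = 0.000171, limma) and *Homer3* by 0.998 (adjusted p = 0.000136, limma), the latter not called after centring (-0.43).

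In LPS 4 h 1 of the osteoclast genes was called higher and 2 lower. *Mmp9*, a matrix metalloproteinase gene, fell by 2.08 and *Acp5*, the gene of the marker enzyme TRAP, rose by 1.16 (adjusted p = 0.0138 and 0.031, limma). *Atp6v0d2* fell by 1.02 with an adjusted p of 0.0678. Control samples had 44.3, 14.1 and 107 FPKM of *Mmp9*. Without control replicate 3 its difference was -1.38, and it was the 1 gene of the list still called, with *Acp5* at 0.81 and *Atp6v0d2* at -0.94. Without control replicate 2 *Mmp9* was at -2.84. The *Acp5* call was also lost without LPS 4 h replicate 1 (0.99), and that of *Atp6v0d2* without control replicate 1 (-0.86), LPS 4 h replicate 2 (-0.83) or LPS 4 h replicate 3 (-1.04). The list median was 0.16, against -0.52 over all tested genes, of which 49.8% were called. After centring 4 members of the list were called higher and 1 lower. Without LPS 72 h replicate 3, the lists of calcium genes, calcineurin binders, osteoclast genes and NFAT5 targets each had 1 more gene called in LPS 72 h than with it.

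The genes whose pattern over the 15 samples was most like that of a member are named as a description, since the samples share groups and libraries. For *Nfatc1* these were *Serinc5* (Pearson r of log2 values 0.983), *Fam109a* (0.982), *Mdh1* (0.979), *Rasal2* (0.978) and *Bbs9* (0.977). *Nfatc2* was most like *Epb41l1* (0.990), *Sesn1* (0.988), *Tbc1d31* (0.985) and *Cops4* (0.984), and among the members it was closest to *Nfatc3* (0.902) and *Ppp3ca* (0.895). *Rcan1* was most like *Ccdc94* (0.921), *Cyth3* (0.915), *Mtmr14* (0.893), *Clic4* (0.876) and *Aebp2* (0.875) and ran against *Nfatc3* (-0.707) and *Nfatc2* (-0.669). *Nfat5* was most like *Taok1* (0.939), *Dsel* (0.917), *Kdm1a* (0.906), *Trps1* (0.902) and *Atp9b* (0.901) and had an r of -0.02 with *Nfatc2*.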

How the data were processed

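RNA-seq was deposited as 1 table of FPKM per gene and sample, which the authors computed with StringTie and Ballgown (genome builds GRCm38.p4 and mm10 in the submitters' processing notes). The authors tested with edgeR. The aligner is not given in the sources used here. The table stops in the alphabet after *Tti2* and its 1 incomplete entry was left out, so later genes were not analysed here. Fragment numbers were recovered for the 14485 genes above 0 in at least 3 samples. For each, a worth of 1 fragment was sought that made all its values whole numbers within 0.01. That limit was the rule of the search, so meeting it is no separate check.

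Genes averaging 0.1 FPKM or more were fitted as log2(FPKM + 0.1) in limma 3.58.1 (R 4.3.3) over all 5 groups, with a trend in the prior variance, and tested on simulated data. All 9 genes are named. From each pathway list at most 4 called genes per comparison with control were named, those with the largest log2 fold changes, and the genes most like a member are at most the first 5 by Pearson r. Some genes that these rules name are not reported here. *Calcr*, and *Itpr1* in RANKL 72 h, were named after their values were seen. Members and lists were chosen with earlier results of these data known. Same-numbered samples deviated together (r above 0.1 for all 3 numbers) in every pair of groups without LPS 72 h and in no pair with it, and the labels give no pairing. Gene positions came from GENCODE M21 and promoter sequences from RefSeq (GRCm38.p6). Figures were drawn with matplotlib 3.10.9.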

Additional observations from a re-analysis of the deposited data

Results flagged for a closer look

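The same stimulus was set against the same control at 4 h and at 72 h, and the limma test of 1 time against the other called 6 differences. With RANKL, the log2 difference of 72 h from 4 h was 2.50 for *Nfatc1* (adjusted p = 2.56e-05) and 0.83 for *Nfat5* (adjusted p = 0.027). With LPS it was 1.02 for *Nfatc1* (adjusted p = 0.00344), 2.29 for *Nfatc2* (adjusted p = 5.57e-05), 1.02 for *Nfatc3* (adjusted p = 0.00019) and -2.12 for *Rcan1* (adjusted p = 4.17e-06). Over all tested genes 28.3% were called between the RANKL times and 59.3% between the LPS times. After centring, *Nfatc1* (0.37) and *Nfatc3* (0.37) were no longer called between the LPS times. In each of the 6 the 3 samples at 1 time lay wholly on one side of the 3 at the other. Since the 6 were picked for their difference, that separation adds nothing to the calls.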

How the results depend on the processing

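The 72 log2 differences of the 9 genes over 8 comparisons were recomputed under 26 alternatives each, except *Nfatc4*, which a filter of 1 FPKM removed, and 52 of them had the same call throughout. Of the 1864 recomputed values 30 lost the call, 25 gained it and 1 was reversed: *Ppp3cb* between the LPS times, -0.63 after centring on the median gene. Centring also left 3 members called between RANKL and LPS at 4 h and 3 at 72 h. The RANKL times had 4 members called with FPKM rescaled to equal sums. With the adjusted p in the rule 0 members were called in RANKL 4 h, where the unadjusted p called 1 and voom (limma) on the recovered fragments, an alternative chosen after seeing the data, also 1. In LPS 72 h 1 was called by the adjusted p and 1 with only the compared groups in the fit, and 1 to 3 when single samples were left out. The replicate block, a paired fit by sample number, raised the members called between the RANKL times to 4 and those between RANKL and LPS at 72 h to 6, and changed no other count of members. Over all genes, RANKL 4 h had 301 calls, 189 with a pseudocount of 1 and 14 with the adjusted p. LPS 4 h had 5846 calls and 3724 after centring, and RANKL against LPS at 4 h had 6082 and 3792. *Nfatc4* rested on 14 to 234 fragments per sample, and its RANKL 72 h samples had 1.60 ± 1.23 FPKM (SD, n = 3). Except for centring as named above, the cause of each change was not tested.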
